A study of Homo sapiens with 11 samples.

Results

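The 10 genes described here are a panel of the Hippo pathway: YAP1, WWTR1, TEAD1, LATS2, AMOTL1, AMOTL2, CCN1, CCN2, AXL and ANKRD1. They were taken by symbol from the 60612 genes of the deposited expression table, in RKO and HCT-116, established human colorectal cancer cell lines. The study set cells exposed for 24 h to phenylacetaldehyde (PAA), a small aldehyde with an aromatic ring, against cells in medium with 0.1% DMSO as vehicle. The groups were RKO with PAA (n = 3), RKO with DMSO (n = 2, numbered 2 and 3), HCT-116 with PAA (n = 3) and HCT-116 with DMSO (n = 3). The labels name no engineered allele. Neither the dose of PAA nor the time in vehicle is given in the sources used here. Nothing in the labels says that replicates were separate cultures, so each p-value measures only how far these samples differ within a group, a spread that may be technical. The panel was chosen by gene role, with the FPKM of these libraries and their PAA differences already known, and which of those values decided for a gene is not recorded. Their values are therefore given as a description, with no p-value. How many of them lay past the threshold of a fit across all genes is counted once below, beside the share of all genes, and nothing is read from those counts.

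The Hippo pathway is a kinase cascade in which the kinases MST1 and MST2 activate LATS1 and LATS2, which phosphorylate the coactivators YAP (from YAP1) and TAZ (from WWTR1) and keep them out of the nucleus. Unphosphorylated YAP and TAZ enter the nucleus, bind TEAD transcription factors and turn on genes for growth, matrix and adhesion. In the intestinal epithelium the pathway is known for its part in regeneration and in tumour growth. Much of this control acts on protein modification and location, which RNA sequencing does not measure.

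In RKO, the secreted matrix protein genes CCN1 and CCN2 and the receptor kinase gene AXL were lower with PAA than with DMSO, and in HCT-116 all 3 were higher with PAA. CCN1 averaged 21.5 ± 0.497 FPKM in RKO with PAA (SD, n = 3) and 48.6 ± 0.948 FPKM in RKO with DMSO (SD, n = 2). In HCT-116, CCN1 averaged 6.93 ± 0.302 FPKM with PAA and 2.76 ± 0.309 FPKM with DMSO (SD, n = 3 each). LATS2 and AMOTL2, a restraining kinase and a scaffold of the same pathway, were higher with PAA in both lines, and WWTR1 was lower with PAA in both. FPKM is a fragment value scaled by transcript length and by library depth, so these levels are per length. In bulk RNA, fewer cells of a type and less RNA per cell cannot be told apart.

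Estimated depth was 13650000 to 22780000 fragments per library. Of the genes marking epithelium and colon, 4 of 8 reached an FPKM of 1 in RKO and 5 of 8 in HCT-116. Their summed FPKM was 31.4 to 33.5 in RKO with PAA, 32.4 to 34.1 in RKO with DMSO, 344 to 351 in HCT-116 with PAA and 361 to 414 in HCT-116 with DMSO. CDH1, the epithelial cadherin, stayed at or under 0.127 FPKM in RKO. VIL1 and CDX1, genes of the intestinal epithelium, stayed at or under 0.182 FPKM in both lines, and KRT20 at or under 0.813 FPKM. CDX2, of the same list, measured 3.82 to 5.65 FPKM across the libraries of both lines. In RKO, EPCAM measured 4.61 to 6.06, KRT8 3.26 to 5.43 and KRT18 15.8 to 20.8 FPKM. Among 11 genes of fibroblasts, endothelium and blood, PTPRC and CD3E were at 0 in every library, and COL1A1 alone reached an FPKM of 1, with at most 2.55. Their sum ran from 0.00625 to 0.303 in RKO with PAA, 0.671 to 1.5 in RKO with DMSO, 1.61 to 3.31 in HCT-116 with PAA and 2.5 to 3.07 in HCT-116 with DMSO. The share of FPKM in mitochondrial genes was 18.2 to 18.5% in RKO with PAA and 33.8 to 34.9% in RKO with DMSO. In HCT-116 it was 31.2 to 31.4% with PAA and 38.2 to 40.2% with DMSO. The part of these markers and of this share in the results was not tested, apart from the scalings given below.

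The promoters of 5 panel genes are shown because they hold matches within 250 bases before a start to the TEAD core, the sequence through which YAP and TAZ reach the classic targets. They come from RefSeq, build GRCh38.p14, are written 5′ to 3′ on the strand of the gene, and end at the base before the annotated start. Capitals mark each match to CATTCC or to its reverse complement GGAATG. In CCN2 (chr6:131951373-131951622, minus strand) there were 3 matches. In ANKRD1 (chr10:90921088-90921337, minus strand) there were 2, and this window lies partly inside the GENCODE gene, whose annotated start is farther upstream. AMOTL2 has 2 RefSeq starts, and the window of the start shown (chr3:134374448-134374697, minus strand) lies inside the GENCODE gene and holds 1 match. YAP1 (chr11:102110197-102110446, plus strand) holds 1 match. AXL also has 2 RefSeq starts, and the window of the second (chr19:41226505-41226754, plus strand), inside the GENCODE gene, holds 1 match.
CCN2: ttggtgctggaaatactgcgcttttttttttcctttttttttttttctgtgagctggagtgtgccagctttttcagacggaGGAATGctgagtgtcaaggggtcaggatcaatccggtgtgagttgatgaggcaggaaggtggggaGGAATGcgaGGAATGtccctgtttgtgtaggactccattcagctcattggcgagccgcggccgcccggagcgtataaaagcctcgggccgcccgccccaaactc
ANKRD1: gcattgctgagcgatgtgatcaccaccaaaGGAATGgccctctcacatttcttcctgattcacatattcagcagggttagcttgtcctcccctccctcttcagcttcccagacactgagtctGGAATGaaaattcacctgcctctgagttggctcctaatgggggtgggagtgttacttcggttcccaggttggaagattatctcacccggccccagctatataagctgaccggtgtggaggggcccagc
AMOTL2: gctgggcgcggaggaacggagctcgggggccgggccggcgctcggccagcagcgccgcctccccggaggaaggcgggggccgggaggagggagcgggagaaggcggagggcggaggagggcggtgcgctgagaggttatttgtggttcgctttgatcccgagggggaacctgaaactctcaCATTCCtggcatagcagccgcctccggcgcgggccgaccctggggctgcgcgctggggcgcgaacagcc
YAP1: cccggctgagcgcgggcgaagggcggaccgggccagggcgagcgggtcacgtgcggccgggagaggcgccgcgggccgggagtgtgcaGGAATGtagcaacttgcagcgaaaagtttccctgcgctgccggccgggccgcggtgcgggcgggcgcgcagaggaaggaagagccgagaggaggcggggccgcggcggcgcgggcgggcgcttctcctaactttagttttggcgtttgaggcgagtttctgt
AXL: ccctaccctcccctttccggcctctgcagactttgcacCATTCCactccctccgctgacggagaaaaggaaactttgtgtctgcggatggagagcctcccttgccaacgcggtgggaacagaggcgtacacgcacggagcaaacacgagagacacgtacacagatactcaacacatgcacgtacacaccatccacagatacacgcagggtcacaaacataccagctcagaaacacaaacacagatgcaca

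RefSeq promoter windows of 300 bases (250 before the start and 50 after it) were matched for 8 of the 10 genes, and CCN1 and TEAD1 were not matched. Among 35116 such windows of all genes, 14% held at least 1 TEAD core on either strand, 1.37% at least 2, and 0.128% at least 3. In CCN2 the matches begin 169, 104 and 95 bases before the start, and in ANKRD1 they begin 220 and 128 bases before it. The ANKRD1 window also holds the AP-1 core TGANTCA, read on both strands and overlapping no TEAD core, 195 bases before the start, and 7.71% of all windows hold that core. A match begins 162 bases before the YAP1 start and 69 bases before the AMOTL2 start shown above. AXL has a match 212 bases before the second of its starts, and LATS2 has a match that begins 9 bases after the start. No match to the TEAD core was found in either WWTR1 window, in AMOTL1, in the other AXL window or in the other AMOTL2 window. A match is a description of the letters and not a binding site. The rule for the panel did not use these sequences.

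LATS2 (chr13:20973032-21061547, minus strand, GRCh38, GENCODE v29) encodes the kinase that phosphorylates YAP and TAZ, and is itself described as a YAP target. LATS2 measured 8.35, 8.36 and 8.53 FPKM in RKO with PAA and 6.26 and 6.18 FPKM in RKO with DMSO. In HCT-116, LATS2 measured 7.39, 6.30 and 6.20 FPKM with PAA and 3.89, 4.26 and 4.04 FPKM with DMSO. The PAA libraries lay above the DMSO libraries in both lines, with no overlap. On the log2(FPKM + 1) scale used for every difference here, LATS2 was higher with PAA by 0.38 ± 0.066 (SE) in RKO and by 0.59 ± 0.0591 (SE) in HCT-116. The pseudocount of 1 makes such differences understate the change of low genes.

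YAP1 (chr11:102110461-102233423, plus strand) encodes YAP. YAP1 measured 12.6, 17.8 and 18.5 FPKM in RKO with PAA and 19.5 and 20.0 FPKM in RKO with DMSO. In HCT-116, YAP1 measured 15.3, 14.7 and 14.8 FPKM with PAA and 14.3, 25.4 and 23.3 FPKM with DMSO. In RKO the PAA libraries lay below the DMSO libraries, whereas in HCT-116 the first DMSO library lay below all 3 PAA libraries and the other DMSO libraries lay above them. The differences were -0.28 ± 0.225 (SE) in RKO and -0.43 ± 0.201 (SE) in HCT-116.

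The spread of YAP1 in HCT-116 with DMSO came with a different split among its 11 listed isoforms. In the first HCT-116 DMSO library, the short isoform YAP1-206 (1025 bases) measured 18.8 FPKM and the long isoform YAP1-202 (5284 bases) 2.08 FPKM. In the other HCT-116 DMSO libraries, YAP1-206 measured 0.0717 and 0.0894 FPKM and YAP1-202 measured 22.8 and 20.5 FPKM. Most gene values in these tables match a length-weighted sum of their isoforms, in which a short isoform counts for less. Summed over isoforms without that weight, YAP1 measured 23.7, 21.6 and 23.3 FPKM in HCT-116 with PAA and 34.8, 40.5 and 34.9 FPKM in HCT-116 with DMSO. On that sum the HCT-116 groups did not overlap, and YAP1 was lower with PAA by a log2 difference of -0.66 ± 0.0646 (SE). In RKO the sums were 29.6, 30.7 and 30.5 FPKM with PAA and 32.4 and 32.0 FPKM with DMSO, a log2 difference of -0.08 ± 0.0723 (SE). The plot of gene values beside isoform sums shows this change.

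**Figure D1:**
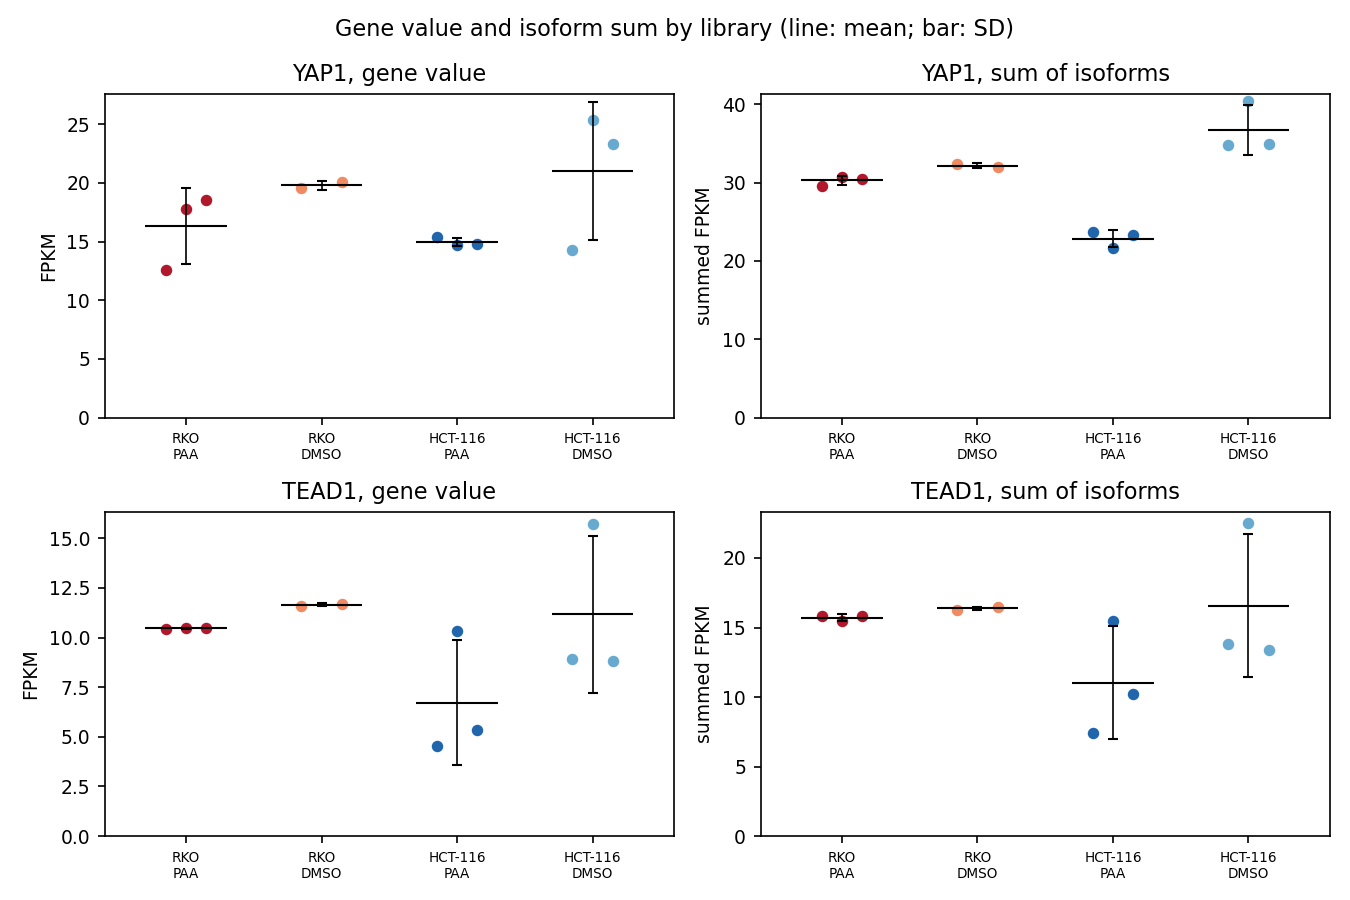
FPKM per library (points) of YAP1 and TEAD1 in the 4 groups, as the gene value (left) and as the sum over isoforms (right), with the group mean (line) and SD (bar). For YAP1 in HCT-116, the DMSO gene values span 14.3 to 25.4 and overlap PAA, while the isoform sums lie at 21.6 to 23.7 with PAA and 34.8 to 40.5 with DMSO.

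WWTR1 (chr3:149517235-149736714, minus strand) encodes TAZ, the paralogue of YAP. WWTR1 measured 3.56, 3.42 and 2.93 FPKM in RKO with PAA and 4.69 and 4.97 FPKM in RKO with DMSO. In HCT-116, WWTR1 measured 6.80, 6.86 and 7.0 FPKM with PAA and 8.61, 9.23 and 8.45 FPKM with DMSO. The PAA libraries lay below the DMSO libraries in both lines, and every RKO library lay below every HCT-116 library. The differences with PAA were -0.44 ± 0.0666 (SE) in RKO and -0.31 ± 0.0596 (SE) in HCT-116.

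TEAD1 (chr11:12674591-12944483, plus strand) encodes a TEAD transcription factor that binds DNA for YAP and TAZ. TEAD1 measured 10.5 FPKM in each RKO library with PAA and 11.6 and 11.7 FPKM in RKO with DMSO. In HCT-116, TEAD1 measured 4.51, 10.3 and 5.33 FPKM with PAA and 8.95, 15.7 and 8.83 FPKM with DMSO. The RKO groups did not overlap, and in HCT-116 the second library was the highest in both groups and the groups overlapped. The differences were -0.14 ± 0.307 (SE) in RKO and -0.68 ± 0.275 (SE) in HCT-116. Each SE rests on a spread per gene shared over all 11 libraries. For TEAD1 in HCT-116 the SD was 3.15 FPKM with PAA and 3.95 FPKM with DMSO, against 0.0266 and 0.0742 FPKM in RKO. The SE printed for RKO thus carries the spread of HCT-116. The sum over isoforms kept this spread in HCT-116, with 7.43 to 15.5 FPKM with PAA and 13.4 to 22.5 FPKM with DMSO.

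CCN1 (chr1:85580761-85583962, plus strand) encodes a secreted matrix protein and is a standard readout of YAP activity. CCN1 measured 22.0, 21.0 and 21.4 FPKM in RKO with PAA and 49.3 and 47.9 FPKM in RKO with DMSO. In HCT-116, CCN1 measured 7.28, 6.77 and 6.75 FPKM with PAA and 2.43, 3.04 and 2.81 FPKM with DMSO. No groups overlapped, and the PAA libraries were the lower ones in RKO and the higher ones in HCT-116. The log2 difference with PAA was -1.14 ± 0.0663 (SE) in RKO and 1.08 ± 0.0593 (SE) in HCT-116.

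CCN2 (chr6:131948176-131951373, minus strand), the promoter of which is printed above with 3 TEAD cores, encodes the related secreted protein CTGF. CCN2 measured 1.56, 1.5 and 1.26 FPKM in RKO with PAA and 1.86 and 2.34 FPKM in RKO with DMSO. In HCT-116, CCN2 measured 3.53, 3.79 and 3.16 FPKM with PAA and 1.55, 2.10 and 1.67 FPKM with DMSO. The order was the same as for CCN1, PAA below DMSO in RKO and above it in HCT-116, without overlap. The log2 difference was -0.34 ± 0.107 (SE) in RKO and 0.70 ± 0.0961 (SE) in HCT-116. These values rest on an estimated 55 to 150 fragments per library, few beside the estimated 1159 to 14280 fragments of AXL.

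AXL (chr19:41219203-41261766, plus strand) encodes a receptor tyrosine kinase tied to invasion and drug tolerance. AXL measured 86.8, 94.7 and 83.8 FPKM in RKO with PAA and 127.5 and 122 FPKM in RKO with DMSO. In HCT-116, AXL measured 32.3, 33.5 and 31.3 FPKM with PAA and 13.8, 14.1 and 14.8 FPKM with DMSO. Every RKO library lay above every HCT-116 library, and with PAA the lines lay closer together. The log2 difference was -0.49 ± 0.0574 (SE) in RKO and 1.13 ± 0.0514 (SE) in HCT-116. In HCT-116 with PAA the longer isoform AXL-201 measured 27.4, 8.53 and 8.37 FPKM and the shorter AXL-202 9.66, 41.0 and 37.8 FPKM, so the first library differed in isoform split while its gene value did not stand apart.

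ANKRD1 (chr10:90912096-90921276, minus strand), a stress-induced muscle ankyrin repeat gene much used as a YAP reporter, was near the limit of detection. ANKRD1 measured 0.355, 0.461 and 0.644 FPKM in RKO with PAA and 0.102 and 0 FPKM in RKO with DMSO. In HCT-116 it was listed at 0, 0 and 0.104 FPKM with PAA and at 0.0343, 0.0485 and 0 FPKM with DMSO. The RKO groups did not overlap, and the estimated fragments behind these values number 15, 20 and 24 in RKO with PAA and 4 and 0 in RKO with DMSO. ANKRD1 was under the low-value filter and was not fitted.

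AMOTL1 (chr11:94706431-94876753, plus strand) and AMOTL2 (chr3:134355874-134375479, minus strand) encode angiomotin-like scaffolds that bind YAP at junctions and actin and hold it in the cytoplasm. AMOTL1 measured 0.0783, 0.0343 and 0.0665 FPKM in RKO with PAA and 0.163 and 0.116 FPKM in RKO with DMSO. In HCT-116 it measured 4.13, 4.12 and 3.98 FPKM with PAA and 7.10, 7.48 and 7.37 FPKM with DMSO. The PAA libraries lay below the DMSO libraries in both lines. AMOTL1 thus passed the filter of an FPKM of 1 in 2 libraries only through HCT-116, where it was lower with PAA by a log2 difference of -0.71 ± 0.0414 (SE), and its RKO values rest on an estimated 8 to 36 fragments per library.

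AMOTL2 measured 12.0, 13.5 and 9.55 FPKM in RKO with PAA and 6.52 and 7.13 FPKM in RKO with DMSO. In HCT-116, AMOTL2 measured 11.4, 11.9 and 8.24 FPKM with PAA and 6.62, 6.21 and 6.83 FPKM with DMSO. The PAA libraries lay above the DMSO libraries in both lines, and in both the third PAA library was the lowest of the 3. The log2 difference was 0.69 ± 0.16 (SE) in RKO and 0.59 ± 0.143 (SE) in HCT-116. These scaffolds therefore had opposite signs in HCT-116. The plot of values by library shows all 10 genes.

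**Figure D2:**
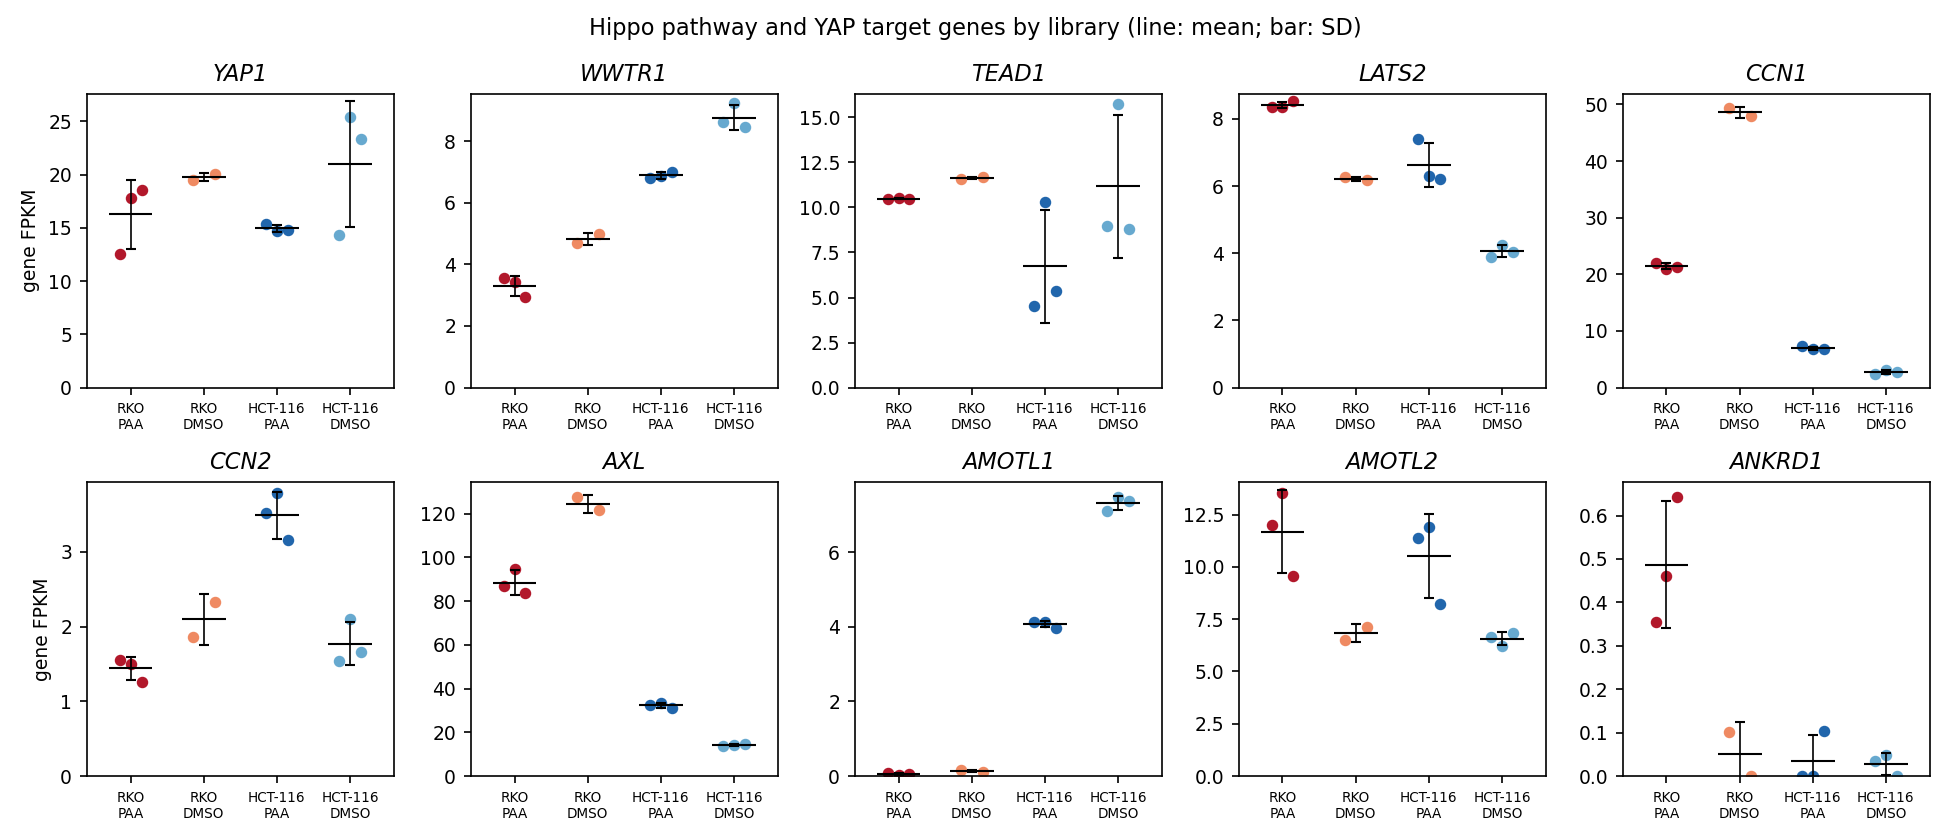
Gene FPKM per library (points) of the 10 panel genes in RKO with PAA, RKO with DMSO, HCT-116 with PAA and HCT-116 with DMSO, with the group mean (line) and SD (bar), each panel on its own scale from 0. CCN1 and AXL are highest in RKO with DMSO and lowest in HCT-116 with DMSO, and AMOTL1 lies at or under 0.163 FPKM in RKO.

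With DMSO alone, AXL had the highest level of the panel in RKO, with 125 ± 4.20 FPKM (SD, n = 2), followed by CCN1 with 48.6 ± 0.948 FPKM. In HCT-116 with DMSO, YAP1 had the highest mean, 21.0 ± 5.89 FPKM (SD, n = 3), followed by AXL with 14.2 ± 0.543 and TEAD1 with 11.2 ± 3.95 FPKM, and these neighbours overlap. Relative to HCT-116 with DMSO, RKO with DMSO had higher CCN1 by a log2 difference of 3.72 ± 0.0663 (SE) and higher AXL by 3.04 ± 0.0574 (SE). LATS2 was higher in RKO by 0.51 ± 0.066 (SE), WWTR1 lower by -0.74 ± 0.0666 (SE) and AMOTL1 lower by -2.87 ± 0.0462 (SE). YAP1, TEAD1, CCN2 and AMOTL2 overlapped between the lines in DMSO. These values use the DMSO libraries of the PAA comparisons and are set beside them only as levels.

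Of the 9 panel genes fitted, 6 lay past an adjusted p of 0.05 in RKO in the limma fit across all genes (2 higher and 4 lower with PAA), where 40% of 13881 genes passed (25.7% higher and 14.3% lower). In HCT-116, 7 of 9 did (5 higher and 2 lower), where 47.1% of genes passed (21.7% higher and 25.3% lower). For the difference between the lines in the PAA effect, 4 of 9 lay past it, where 31% of genes passed (21.3% higher and 9.68% lower). The PAA effect was higher in RKO than in HCT-116 for 1 of them and lower for 3. For the lines in DMSO, 5 of 9 lay past it (3 higher and 2 lower in RKO), where 64.1% of genes passed (33.4% higher and 30.7% lower). In RKO the PAA and DMSO libraries of each of the 9 lay apart (2 higher and 7 lower with PAA), as for 61.6% of genes (38.3% higher and 23.3% lower). In HCT-116 they did not overlap for 7 (5 higher and 2 lower), as for 56.5% of genes (26.5% higher and 30% lower). Between the lines in DMSO, 5 did not overlap (3 higher and 2 lower in RKO), as for 76.3% of genes (40.1% higher and 36.3% lower). The genes were picked with these contrasts known, so nothing is read from the counts. They include AMOTL1, the 1 gene whose PAA effect was higher in RKO than in HCT-116. Its level was lower in RKO: AMOTL1 entered the fit only through HCT-116 and lay at or under 0.163 FPKM in RKO. On the isoform sum the RKO groups of AMOTL1 overlapped, with 0.208 to 0.339 FPKM with PAA and 0.245 and 0.348 FPKM with DMSO. YAP1 and TEAD1 were past the threshold in neither line. The median log2 difference of the 9 was -0.28 in RKO, against 0.06 over all genes tested, and 0.59 in HCT-116, against -0.01 over all genes tested. Over all genes tested, 148 (1.07%) were past the threshold as lower in RKO and as higher in HCT-116. The opposite pattern was held by 406 genes (2.92%). CCN1, CCN2 and AXL were picked with their differences known, so nothing is read from these shares or from the medians.

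**Figure D3:**
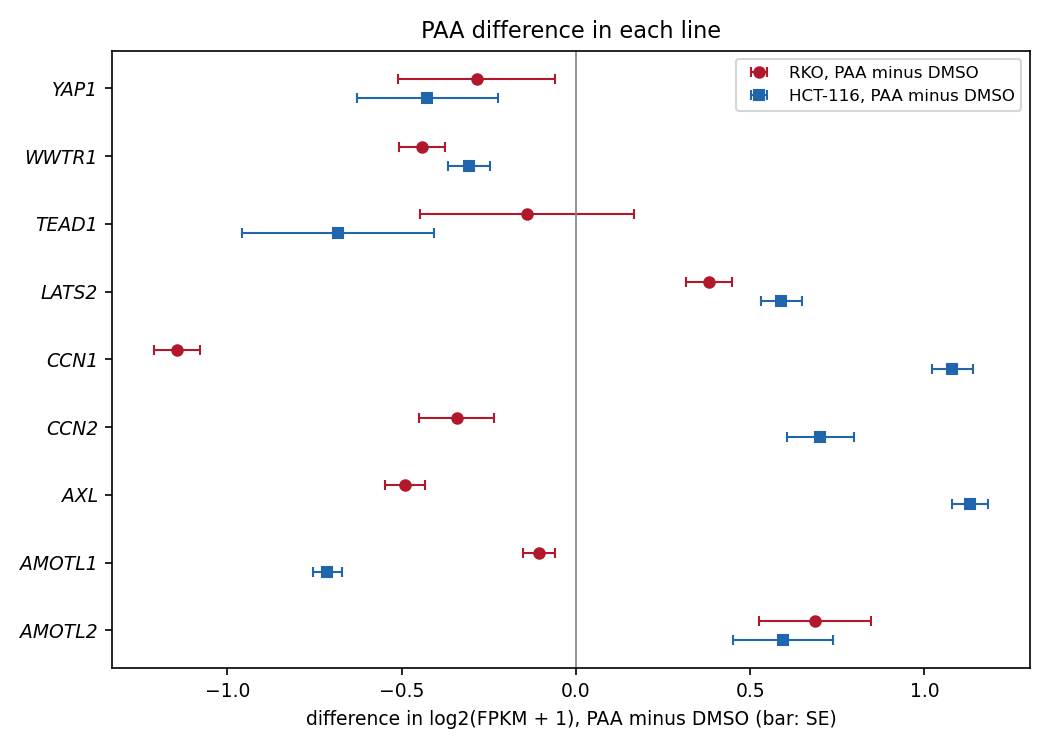
Difference in log2(FPKM + 1), PAA minus DMSO, of the 9 fitted panel genes in RKO (circles) and HCT-116 (squares), with bars for the SE. CCN1, CCN2 and AXL lie on opposite sides of 0 in the lines (CCN1 at -1.14 in RKO and 1.08 in HCT-116), and LATS2, AMOTL2, WWTR1 and AMOTL1 on the same side.

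Scaling every library to a common FPKM total moved the all-gene median in RKO to 0.28 and the panel with it. In RKO the log2 difference was then 0.12 for TEAD1, which changed sign, -0.01 for YAP1, -0.21 for WWTR1 and AXL, -0.16 for CCN2 and 0.64 for LATS2, while CCN1 kept -0.87. With a pseudocount of 0.1 in place of 1, the difference of CCN2 was -0.51 in RKO and 0.95 in HCT-116. The mitochondrial share given above also differed between PAA and DMSO. With mitochondrial genes left out of the total, the RKO differences were -1.17 for CCN1, -0.35 for CCN2 and -0.52 for AXL, and the HCT-116 differences 1.04, 0.66 and 1.07 in the same order.

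Among other genes described as YAP and TAZ targets, tested here with limma and Benjamini-Hochberg adjustment over all 13881 genes, 4 of 5 passed the low-value filter. This list and those below were also chosen with earlier results of these data known. Their calls and counts are therefore descriptions and not independent tests. THBS1, which encodes thrombospondin-1, passed that filter only through HCT-116 and was near 0 in RKO. It measured 0.0425, 0.0381 and 0.0673 FPKM in RKO with PAA and 0.307 and 0.302 FPKM in RKO with DMSO. THBS1 fell there by -0.31 ± 0.0777 (SE, adjusted p = 0.0108), a call that leaving out either DMSO library ends (adjusted p 0.056 without the second and 0.0529 without the third), and that a pseudocount of 5 ends too (-0.07). In HCT-116, THBS1 averaged 3.25 ± 0.405 FPKM with PAA and 2.43 ± 0.144 FPKM with DMSO (SD, n = 3 each) and rose by 0.31 (adjusted p = 0.00579), and on the isoform sum the adjusted p was 0.298. DKK1, which encodes a Wnt antagonist, went the other way in HCT-116, with 21.3 ± 0.194 FPKM with PAA and 62.8 ± 1.79 FPKM with DMSO (SD, n = 3 each), a fall of -1.52 (adjusted p = 5.22e-08). In RKO, DKK1 lay at or under 0.188 FPKM in every library. Of the 4 genes tested in this list, 1 fell and none rose in RKO, and 1 rose and 1 fell in HCT-116. AREG, also in this list, passed the filter only through HCT-116 and lay at or under 0.512 FPKM in RKO. The RKO count of this list thus rests largely on genes near 0 there, and nothing is read from it. The shares of all genes tested, beside which each list is set, were 25.7% higher and 14.3% lower in RKO (median 0.06) and 21.7% higher and 25.3% lower in HCT-116 (median -0.01).

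A signature of genes described as YAP and TAZ targets, with the panel genes left out, held 16 genes, of which 11 were tested. In RKO, 6 rose and 1 fell, with a median log2 difference of 0.18, where 25.7% of all genes rose and 14.3% fell. In HCT-116, 3 rose and 3 fell, with a median of 0.07, where 21.7% of all genes rose and 25.3% fell. GADD45A, a stress and DNA damage response gene, rose in both lines. It measured 73.7, 74.9 and 99.1 FPKM in RKO with PAA and 34.2 and 28.2 FPKM in RKO with DMSO, a log2 difference of 1.37 ± 0.125 (SE, adjusted p = 4.44e-05). In HCT-116, GADD45A measured 84.0, 83.4 and 88.5 FPKM with PAA and 27.0, 27.6 and 25.4 FPKM with DMSO, a log2 difference of 1.64 ± 0.112 (SE, adjusted p = 4.11e-06). CRIM1, a transmembrane regulator of BMP ligands, rose in RKO (0.69, adjusted p = 1.67e-06) and in HCT-116 (0.32, adjusted p = 3.9e-05). FJX1, a secreted Golgi kinase-like protein gene, fell in RKO (-0.36, adjusted p = 0.00931) and in HCT-116 (-0.58, adjusted p = 0.000253).

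The signature genes that passed in RKO as higher included ARHGEF17, a guanine nucleotide exchange factor gene, at 0.58 (adjusted p = 0.000827), and MYOF, ASAP1 and DOCK5 at 0.22, 0.23 and 0.18. MYOF, a membrane repair gene, fell in HCT-116, with 35.9 ± 0.769 FPKM with PAA and 53.6 ± 0.949 FPKM with DMSO (SD, n = 3 each; log2 difference -0.57, adjusted p = 1.09e-05). NT5E, the ectoenzyme CD73, rose in HCT-116 (0.37, adjusted p = 0.0105), and PTPN14, a phosphatase that binds YAP, fell there (-0.24, adjusted p = 0.00155). F3 and NUAK2 passed in neither line. NUAK2 entered the fit only through HCT-116 and lay at or under 0.0843 FPKM in RKO, so its RKO difference is held near 0 by its level. Under median-of-ratios scaling the RKO differences of ASAP1 and DOCK5 were 0.13 and 0.09 and no longer passed. The MYOF call in RKO was lost under quantile normalization and on the isoform sum (adjusted p 0.0992 and 0.103). It was also lost in a fit within RKO alone and with a replicate block (adjusted p 0.0793 and 0.0813). Leaving out the third RKO DMSO library left 3 signature genes passing in RKO, with FJX1, MYOF, ASAP1 and DOCK5 lost (adjusted p 0.0666, 0.0695, 0.152 and 0.0842), and leaving out the second RKO PAA library ended the ASAP1 call (adjusted p 0.0581).

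**Figure D4:**
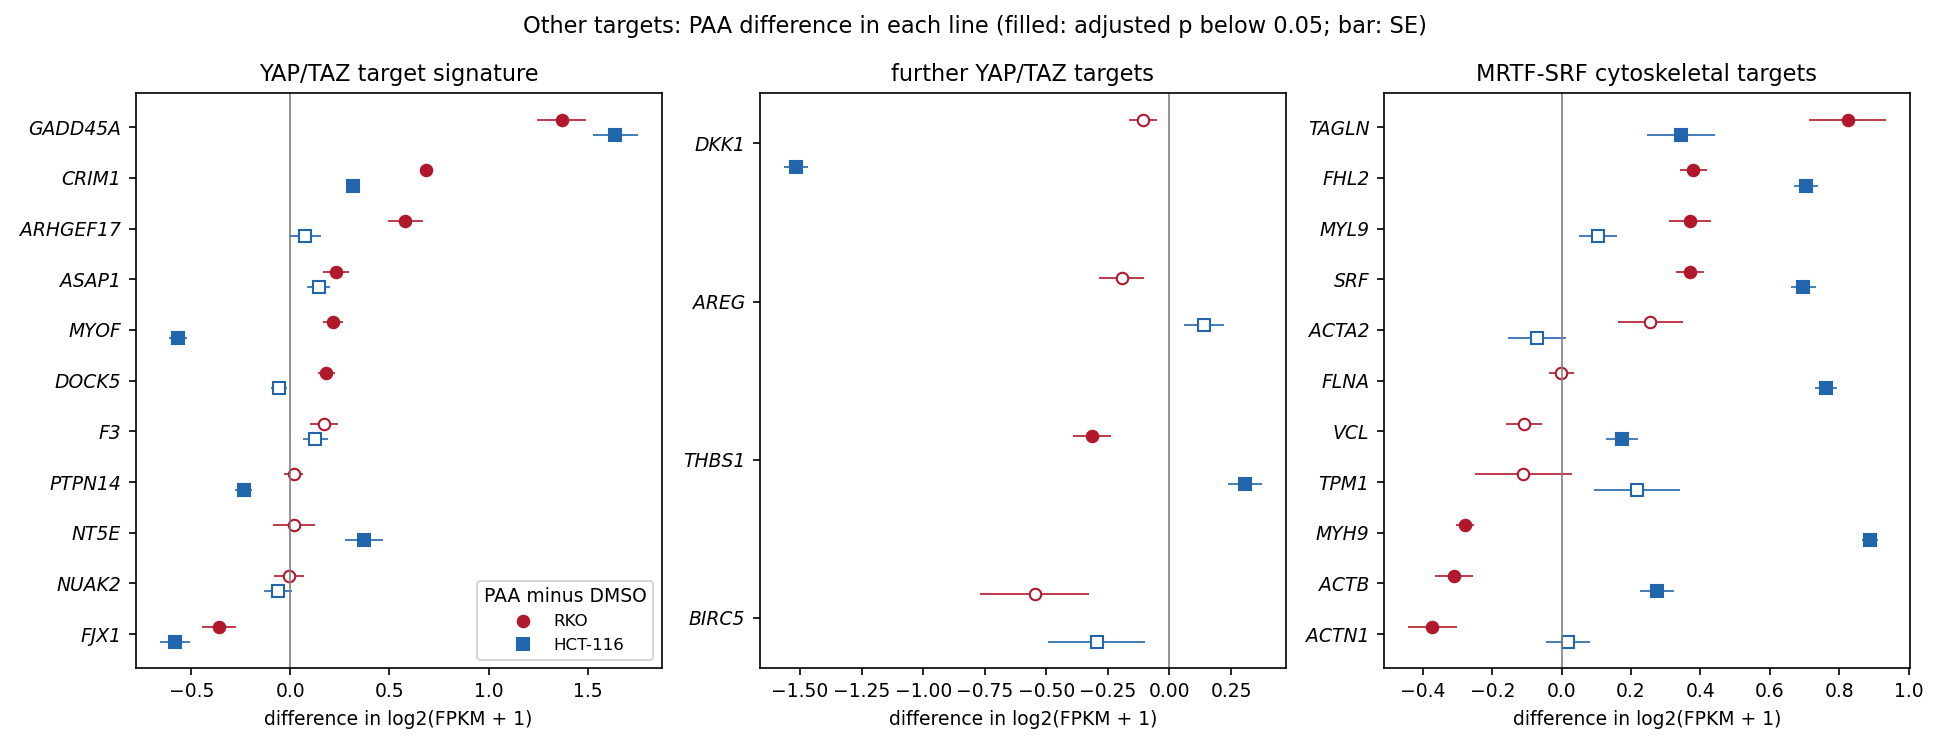
Difference in log2(FPKM + 1), PAA minus DMSO, in RKO (circles) and HCT-116 (squares) for the tested genes of the target signature, of the further targets and of the MRTF-SRF targets, with bars for the SE and filled symbols for an adjusted p below 0.05. DKK1 lies at -1.52 in HCT-116, THBS1 at -0.31 in RKO and 0.31 in HCT-116, and GADD45A above 1 in both lines.

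MRTF and SRF control genes of the actin cytoskeleton and have targets in common with YAP. Of 11 such genes tested, 7 rose and none fell in HCT-116, with a median log2 difference of 0.27, where 21.7% of all genes rose and 25.3% fell. In RKO, 4 rose and 3 fell, with a median of -0.00, where 25.7% of all genes rose and 14.3% fell. MYH9, the heavy chain of nonmuscle myosin IIA, measured 167, 163 and 163 FPKM in HCT-116 with PAA and 87.4, 87.7 and 89.7 FPKM in HCT-116 with DMSO, a rise of 0.89 ± 0.0232 (SE, adjusted p = 1.32e-08). In RKO, MYH9 fell by -0.28 (adjusted p = 4.62e-05), a difference that was 0.00 with a common total. FLNA, the actin crosslinker filamin A, rose in HCT-116 by 0.76 ± 0.032 (SE, adjusted p = 2.25e-07), and in RKO it averaged 161 ± 5.34 FPKM with PAA and 161 ± 0.676 FPKM with DMSO. In RKO the log2 difference of FLNA was 0.28 with a common total and -0.11 under median-of-ratios scaling, each past the threshold (adjusted p 0.000825 and 0.0433). TAGLN and FHL2, which encode actin and focal adhesion proteins, rose in RKO (0.82, adjusted p = 0.000393, and 0.38, adjusted p = 7.81e-05) and in HCT-116 (0.34, adjusted p = 0.0183, and 0.71, adjusted p = 5.27e-07). ACTB and ACTN1 fell in RKO by -0.31 and -0.37 (adjusted p 0.00176 and 0.00259), and neither passed with a common total (-0.02 and -0.09). TAGLN was low in HCT-116, with 1.03, 1.27 and 1.18 FPKM with PAA and 0.838, 0.698 and 0.575 FPKM with DMSO. The pseudocount therefore weighs more on its difference there than in RKO. The TAGLN call in HCT-116 was lost without the second PAA library (adjusted p 0.0606) or the third DMSO library (adjusted p 0.0649). It was also lost with a pseudocount of 5 (0.11, adjusted p 0.173).

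Upstream, 23 genes of the Hippo kinases and their cofactors were tested. In RKO, 4 rose and 2 fell (median -0.01), where 25.7% of all genes rose and 14.3% fell. In HCT-116, 6 rose and 8 fell (median -0.04), where 21.7% of all genes rose and 25.3% fell. SAV1, the adaptor of MST kinases, rose in RKO (8.31 ± 0.708 FPKM with PAA and 5.77 ± 0.196 FPKM with DMSO, log2 difference 0.46, adjusted p = 0.000769) and did not pass in HCT-116 (-0.09, adjusted p = 0.262). WWC1, the KIBRA scaffold, rose in RKO (0.40, adjusted p = 0.00181) and fell in HCT-116 (-0.19, adjusted p = 0.0326). The WWC1 call in HCT-116 was lost with a common total (-0.09) and without the first or the third library of either HCT-116 group (adjusted p 0.0834 to 0.104). LATS1, the paralogue of LATS2, rose in HCT-116 (0.38, adjusted p = 9.01e-05), as did WWC2 (0.44, adjusted p = 0.00229), whose adjusted p was 0.317 on the isoform sum. MOB1A, the LATS coactivator, fell in both lines, by -0.33 in RKO (adjusted p = 0.000196) and by -0.33 in HCT-116 (adjusted p = 7.52e-05), and did not pass in RKO with a common total (-0.06). TAOK2, a kinase upstream of MST, also fell in RKO (-0.39, adjusted p = 8.19e-05) and in HCT-116 (-0.24, adjusted p = 0.000452).

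TNIK, a MAP4K-family kinase better known for its part in Wnt signalling, had the largest fall of the list in HCT-116. TNIK measured 2.87, 2.64 and 2.88 FPKM in HCT-116 with PAA and 8.65, 8.40 and 8.28 FPKM in HCT-116 with DMSO, a log2 difference of -1.31 ± 0.0409 (SE, adjusted p = 3.94e-08). In RKO, TNIK measured 2.24, 2.14 and 2.17 FPKM with PAA and 2.40 and 2.27 FPKM with DMSO, and did not pass (adjusted p = 0.281). MAP4K2, of the same kinase family, fell in HCT-116 as well (-0.52, adjusted p = 0.000157).

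Among the other TEAD genes and the VGLL cofactors, 4 of 7 were tested. TEAD4 and TEAD3 rose in RKO, by 0.42 (adjusted p = 0.00351) and 0.37 (adjusted p = 0.00271). TEAD2 measured 3.38, 2.71 and 1.83 FPKM in HCT-116 with PAA and 6.39, 7.34 and 6.57 FPKM in HCT-116 with DMSO, a fall of -1.12 ± 0.143 (SE, adjusted p = 0.000209). In RKO, TEAD2 averaged 6.16 ± 0.509 FPKM with PAA and 5.87 ± 0.654 FPKM with DMSO and did not pass (adjusted p = 0.826). VGLL4, a cofactor that competes with YAP for TEAD, rose in HCT-116 (0.23, adjusted p = 0.0166), a call lost without the first HCT-116 PAA library (adjusted p 0.0516) and without the first or the second HCT-116 DMSO library (adjusted p 0.052 for each).

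The phosphatase complex STRIPAK and the LIM-domain proteins AJUBA and LIMD1 restrain MST and LATS kinases. Of 13 tested genes, 5 rose and 1 fell in RKO (median 0.15), where 25.7% of all genes rose and 14.3% fell. In HCT-116, 3 rose and 1 fell (median 0.11), where 21.7% of all genes rose and 25.3% fell. AJUBA rose in RKO (0.45, adjusted p = 6.13e-05) and in HCT-116 (0.20, adjusted p = 0.00269). CTTNBP2NL, a STRIPAK subunit, had the pattern of CCN1: it measured 9.97, 10.0 and 9.88 FPKM in RKO with PAA and 14.1 and 13.8 FPKM in RKO with DMSO. In HCT-116, CTTNBP2NL measured 4.94, 5.14 and 4.68 FPKM with PAA and 3.07, 3.13 and 3.29 FPKM with DMSO. It fell in RKO by -0.45 (adjusted p = 6.4e-05) and rose in HCT-116 by 0.51 (adjusted p = 8.85e-06). STRN4 rose in RKO (0.36, adjusted p = 0.0477) and STRIP2 fell in HCT-116 (-0.23, adjusted p = 0.00142), and the STRN4 call was lost when any RKO library other than the first PAA library was left out (adjusted p 0.0633 to 0.225). On the isoform sum, 2 genes of this list passed in RKO, and with a common total 12 did.

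Polarity and junction genes feed into the pathway at the membrane. Of 10 tested, 5 rose and 2 fell in RKO (median 0.15), where 25.7% of all genes rose and 14.3% fell. In HCT-116, 4 rose and 4 fell (median -0.05), where 21.7% of all genes rose and 25.3% fell. FAT1, an atypical cadherin upstream of Hippo, measured 31.5, 30.4 and 30.8 FPKM in HCT-116 with PAA and 93.2, 96.0 and 92.8 FPKM in HCT-116 with DMSO, a fall of -1.57 ± 0.0609 (SE, adjusted p = 1.52e-07). FAT1 also fell in RKO (4.45 ± 0.279 FPKM with PAA and 5.95 ± 0.8 FPKM with DMSO, log2 difference -0.35, adjusted p = 0.00338), a call lost with a common total (-0.11). TJP1, the tight junction scaffold ZO-1, rose in RKO (0.41, adjusted p = 0.0012) and in HCT-116 (0.40, adjusted p = 0.000551), and DLG5, a polarity scaffold, fell in HCT-116 (-0.43, adjusted p = 2.99e-05). CRB3 and CTNNA1, which encode an apical polarity protein and alpha-catenin, rose in HCT-116 (0.56, adjusted p = 0.00091, and 0.43, adjusted p = 0.000586). The CRB3 call was lost with a pseudocount of 0.1 (adjusted p 0.0727) and the CTNNA1 call on the isoform sum (adjusted p 0.355). LLGL1 rose in RKO (0.34, adjusted p = 0.000892) and DLG1, another polarity scaffold, fell there (-0.23, adjusted p = 0.00219), while on the isoform sum the difference of DLG1 was 0.04. The DLG1 call in RKO was also lost with a common total (-0.02, adjusted p 0.738) and with a replicate block (adjusted p 0.0524).

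**Figure D5:**
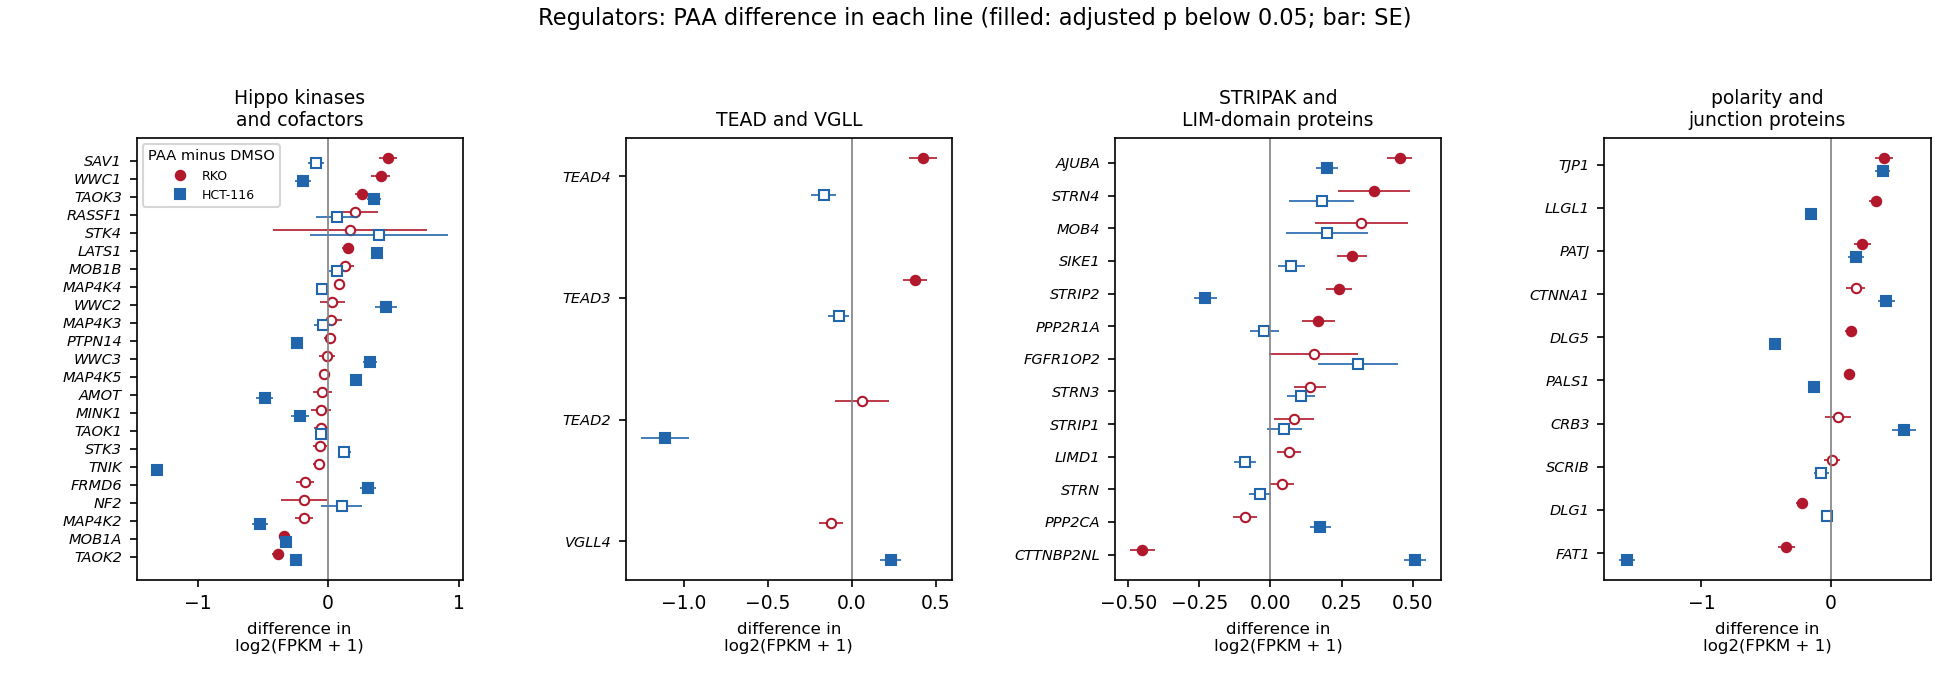
Difference in log2(FPKM + 1), PAA minus DMSO, in RKO (circles) and HCT-116 (squares) for the tested genes of 4 upstream lists, with bars for the SE and filled symbols for an adjusted p below 0.05. TNIK, TEAD2 and FAT1 lie at -1.31, -1.12 and -1.57 in HCT-116, and CTTNBP2NL on opposite sides of 0 in the lines.

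The genes whose levels ran most like CCN2, by Pearson correlation of log2(FPKM + 1) over the 11 libraries, were KIF5B (0.959), MYH9 (0.939) and GBE1 (0.936). KIF5B encodes a kinesin heavy chain and GBE1 the glycogen branching enzyme. For CCN2 and GBE1 the highest group was HCT-116 with PAA, where GBE1 averaged 14.2 FPKM, and the lowest mean of GBE1 was 6.76 FPKM in RKO with PAA. For YAP1 the highest values were 0.862 for MTATP8P1 and 0.839 for TUBBP1, both pseudogenes whose reads can be shared with other copies, and 0.829 for GRPEL1, a mitochondrial cochaperone gene. They use the gene value of YAP1, which was lowest in the first RKO PAA and first HCT-116 DMSO libraries (12.6 and 14.3 FPKM). In these libraries the short isoform YAP1-206 was high (14.6 and 18.8 FPKM). The ranking was not computed on the isoform sum. All points share the scaling of their library and the contrast between the lines, so these are descriptions of rank with no test.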

How the data were processed

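RNA was measured by sequencing in 11 libraries of 4 groups. Gene and isoform FPKM were computed by the authors, and the unit is stated per the file headers of the deposited tables. FastQC, cutadapt 1.9 and the build GRCh38 appear in the submitters' processing notes, and no source used here gives the aligner, quantifier, annotation release or strand setting. The value 0.0001 marks absence and was set to 0. Groups came from the labels.

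log2(FPKM + 1) was fitted with limma 3.58.1 in R 4.3.3 (mean per group, all 11 libraries, mean-variance trend, two-sided), over the 13881 genes that reached an FPKM of 1 in 2 or more libraries, with Benjamini-Hochberg adjustment and a threshold of 0.05. On simulated data for the comparison in RKO over 13881 genes, 85 of 100 genes changed by a log2 of 1 were recovered. Only 200 genes were changed in it, fewer than were called in RKO, and recovery of the smaller changes is not given. It is a check of the fit and not an estimate of power for the differences above. Low values were whole multiples of the value of 1 fragment in 14.6 to 18.6% of cases (tolerance 0.02 fragments, up to 10 fragments), so reads were not recovered and no count test was run. Fragments per gene are estimates from that spacing and the merged exon length in GENCODE 29. Gene values lay within 2% of the length-weighted isoform value in 78.7% of pairs.

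The panel and the lists were chosen with earlier results of these data known. Named genes are the panel, up to 2 called genes with the largest positive and up to 2 with the largest negative difference from each list and line, the tested signature genes, and the 3 genes most like YAP1 and CCN2. AREG is named outside this rule, for its low level in RKO. Alternatives were other pseudocounts, filters and scalings, isoform sums, fits within a line, a replicate block and leaving out each library. Some items of the lists are not reported here and were left out of the list counts, and the rule was applied to the rest.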

Additional observations from a re-analysis of the deposited data

Results flagged for a closer look

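The PAA effect in RKO minus the PAA effect in HCT-116 (log2, limma) is given here for genes in which it stood out. For the panel genes CCN1 (-2.22), AXL (-1.62) and CCN2 (-1.04), every PAA library lay below the DMSO libraries in RKO and above them in HCT-116, and no test of this difference is given, since the panel was chosen with it known. These values are a description.

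Of 42 other named genes, 31 passed an adjusted p of 0.05 for this difference (31% of all 13881 genes did). Many were named for a large PAA difference in a line, so nothing is read from that count. The signs below compare PAA effects and not levels. FHL2, with a negative value, was higher in every RKO library than in any HCT-116 library, and FAT1, with a positive value, was lower. The PAA effect was lower in RKO than in HCT-116 for the target THBS1 (-0.62, adjusted p = 0.00217, at or under 0.307 FPKM in RKO). Among cytoskeletal genes it was lower for MYH9 (-1.17, adjusted p = 1.89e-07), FLNA (-0.76), ACTB (-0.59), ACTN1 (-0.39) and FHL2 (-0.33). Among regulators the PAA effect was lower in RKO for CTTNBP2NL (-0.96, adjusted p = 8e-06), CRB3 (-0.51), WWC2 (-0.41), VGLL4 (-0.35), LATS1 (-0.22) and DLG1 (-0.19). CRB3 lay at or under 0.124 FPKM in RKO, so its value there is near 0 by its level.

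The PAA effect was higher in RKO than in HCT-116 for the targets DKK1 (1.41), MYOF (0.78), ARHGEF17 (0.51), CRIM1 (0.37) and DOCK5 (0.24). The same held for the cytoskeletal gene TAGLN (0.48). DKK1 passed the low-value filter only through HCT-116 and was near 0 FPKM in RKO, so its effect there is held near 0 by its level. Among regulators it was higher in RKO than in HCT-116 for TNIK (1.25, adjusted p = 2.24e-06), FAT1 (1.23), TEAD2 (1.18), WWC1 (0.60), TEAD4 (0.59), DLG5 (0.58) and SAV1 (0.55). It was also higher for LLGL1 (0.50), STRIP2 (0.47), TEAD3 (0.45), MAP4K2 (0.34), AJUBA (0.25) and PTPN14 (0.25).

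Several of these calls were lost when 1 library was left out. This held for 8 of the 11 libraries each for TAGLN (adjusted p 0.0621 to 0.124) and WWC2 (0.0538 to 0.1, every RKO library among them), for 7 for DLG1 (0.0535 to 0.0875) and for 5 each for LATS1 (0.0523 to 0.0889) and MAP4K2 (0.0533 to 0.0767). Without the second RKO DMSO library, ACTN1 (0.0549), CRB3 (0.089), PTPN14 (0.0538) and VGLL4 (0.0815) were lost, and without the third DOCK5 (0.0628). Other settings ended some of them too. TAGLN was 0.22 under quantile normalization (adjusted p 0.367) and 0.26 with a pseudocount of 0.1 (0.421). With that pseudocount CRB3 was -0.21 and DKK1 0.92 (adjusted p 0.083). With a common total LATS1 was -0.08 and VGLL4 -0.22, and FHL2 was lost (adjusted p 0.103). On the isoform sum the adjusted p was 0.279 for MAP4K2, 0.482 for WWC2 and 0.0925 for ACTB. AJUBA, DOCK5 and PTPN14 did not pass under median-of-ratios scaling (0.0982, 0.0802 and 0.0887) or quantile normalization (0.138, 0.153 and 0.183). ARHGEF17 was lost under quantile normalization (0.0676).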

How the results depend on the processing

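Leaving out each library in turn gave 4224 to 5531 called genes in RKO, 5953 to 6484 in HCT-116, 3414 to 4011 for the difference between the lines and 7900 to 8899 for the lines in DMSO. The labels do not say whether libraries with the same replicate number were paired. Deviations from the group means of such libraries correlated at -0.14 and -0.08 in RKO and 0.07, -0.13 and -0.13 in HCT-116. Of the HCT-116 PAA libraries, 1 of 3 correlated best with its own number. With so few libraries per group, these values cannot settle whether they were paired. With a replicate block, 4058 genes passed in RKO, 5658 in HCT-116, 2739 for the difference between the lines, against 4307 without it, and 8644 for the lines in DMSO. With a common total, the share of calls that were higher was 90.4% in RKO (64.3% as reported), 61.3% in HCT-116 (46.2%) and 86.0% for the difference (68.8%), and FLNA and MYH9 in RKO were 0.28 and 0.00376. Median-of-ratios scaling gave 48.5% in RKO and 51.2% for the difference, and quantile normalization 50.1% and 53.4%. On the isoform sum, DLG1 was 0.0365 in RKO and 0.169 for the difference. Of 1740 values of other listed genes under the other alternatives, 116 lost their call, 33 gained one and 4 changed sign. The cause was not tested. Of 1848 such values with 1 library left out, 76 lost their call and 12 gained one. Within the panel, the estimated depth limits CCN2, ANKRD1 and AMOTL1 in RKO most, and THBS1, DKK1, CRB3, AREG and NUAK2 were also near 0 FPKM in RKO.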
